A study of Mus musculus with 8 samples.

Results

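The genes described here belong to epidermal barrier formation and to the S100 family: all Lce, Sprr and S100a genes, with Ivl, Flg2, Rptn, Hrnr, Crnn, Tchh, Sfn, Tgm1, Tgm2, Ppl and Evpl. They were picked by gene symbol from the probe sets that carry exactly 1 symbol, with the probe set of the highest mean kept for a gene, and 57 of the 19938 genes on the arrays met this rule. They comprise 19 Lce, 13 Sprr and 14 S100a genes and 11 singly named genes, and Flg, also named by the rule, was not analysed here. The set was picked because Lce1h, Lce1j and Sfn were higher and Tgm1 and Ppl lower in co-cultured DA3 cells. The comparison of DA3 co-culture with DA3 alone is therefore given as values for these genes, without a test.

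The study measured RNA on 8 Affymetrix mouse gene arrays in 4 groups of 2, to follow the mutual effects of stromal and mammary carcinoma cells. MBA-15 is a mouse stromal line of pre-osteoblastic character and DA3 a mouse mammary adenocarcinoma line, and DA3 cells were seeded on an MBA-15 layer and grown with it in serum-containing medium. The array descriptions give 24 h for all 8 arrays, while the protocol also allows a longer time. Magnetic selection for EpCAM (CD326), an epithelial surface protein, divided the co-cultures into an EpCAM-positive DA3 fraction and an EpCAM-negative MBA-15 fraction, and the control groups are labelled DA3 alone and MBA-15 alone. Whether both arrays in a group stem from different cultures is not stated, and all 8 carry the same culture date, so a p-value measures the spread between these arrays, which may be technical.

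Values are log2 expression per probe set. Array medians lay between 4.479 and 4.642, and the lowest of them serves below as the mark of a low level, since the files hold no detection call. The arrays labelled MBA-15 alone went against their label: Epcam read 8.45 and 9.25 there, 5.58 and 5.19 for co-cultured MBA-15, and 9.57 and 9.46 for DA3 alone. The word mix appears in the description of each of the 4 control arrays, together with a sign for the negative (MBA-15) or positive (DA3) fraction. The 24 measured epithelial markers averaged 6.88 and 7.40 over these arrays, 4.66 and 4.63 over those of co-cultured MBA-15 and 7.60 to 8.11 over the DA3 arrays. In bulk RNA, fewer cells of a type and less RNA per cell cannot be told apart. An assay number in the descriptions, whose meaning is not given, puts 1 array of each group in assay 3, array 2 of DA3 co-culture in assay 5 and the remaining 3 arrays in assay 4.

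As background, the outer cells of the epidermis replace their membrane with a cornified envelope, a shell of cross-linked protein. Involucrin, envoplakin and periplakin are laid down first, small proline-rich (SPRR) and late cornified envelope (LCE) proteins reinforce the shell, and transglutaminases join them. Most of these genes lie in a single cluster, the epidermal differentiation complex, which also holds genes for S100 proteins, small calcium-binding proteins with roles in many tissues. Of the 57 genes, 52 lie on mouse chromosome 3, and Sfn, Tgm1, Tgm2, Ppl and Evpl lie on chromosomes 4, 14, 2, 16 and 11.

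Many of the barrier genes were under the mark of a low level in both lines. Of the 57 genes, 29 had a mean under the lowest array median in all 4 groups: 11 of 13 Sprr genes, 6 of 13 Lce1 genes, 5 of 6 Lce3 and Lce6 genes, 3 of 5 genes of the fused S100 type (Crnn, Flg2, Hrnr, Rptn, Tchh) and 4 of 14 S100a genes. The 13 measured keratinocyte markers had array means between 4.18 and 4.60. Of these 13, 7 had a group mean at the lowest array median or above it. Krt1, a keratin of upper epidermal layers, read 4.05 to 4.53 over the 8 arrays, Krt14, of basal cells, 4.42 to 5.21, and Sbsn, for suprabasin, 4.93 to 7.07. An array median has as many probe sets above it as under it, and the share of all genes under the mark was not counted. These counts therefore do not set the genes apart from other genes. A difference from a group under the array median may be understated.

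The 6 Lce1 genes that stood highest in DA3 co-culture over DA3 alone carry a shared stretch just before their start. The other Lce1 windows hold no exact match to it, and the last 60 bases before each start are shown for that reason. The sequences are from RefSeq, build GRCm38.p6, 5′ to 3′ on the strand of the gene, and 48 of the 57 genes matched the promoter table. Capitals mark the stretch AATAAAAGGACNNATGG.
Lce1c (chr3:92679187-92679246, plus strand): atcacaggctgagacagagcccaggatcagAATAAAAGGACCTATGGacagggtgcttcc
Lce1e (chr3:92709075-92709134, minus strand): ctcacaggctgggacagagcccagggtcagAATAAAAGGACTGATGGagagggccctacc
Lce1g (chr3:92752339-92752398, minus strand): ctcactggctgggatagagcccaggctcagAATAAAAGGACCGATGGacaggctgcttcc
Lce1h (chr3:92765066-92765125, minus strand): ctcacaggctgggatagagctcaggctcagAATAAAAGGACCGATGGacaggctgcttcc
Lce1i (chr3:92778900-92778959, minus strand): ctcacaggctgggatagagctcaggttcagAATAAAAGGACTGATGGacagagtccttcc
Lce1j (chr3:92790515-92790574, minus strand): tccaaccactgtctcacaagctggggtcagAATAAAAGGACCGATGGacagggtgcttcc
The other 6 Lce1 genes in the table read as follows, with no capitals because they hold no exact match to the stretch.
Lce1a1 (chr3:92648308-92648367, minus strand): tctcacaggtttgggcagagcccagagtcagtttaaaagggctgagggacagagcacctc
Lce1a2 (chr3:92670316-92670375, minus strand): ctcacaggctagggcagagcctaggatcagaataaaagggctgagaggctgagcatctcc
Lce1b (chr3:92656927-92656986, minus strand): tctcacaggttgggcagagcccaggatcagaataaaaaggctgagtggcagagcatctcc
Lce1d (chr3:92687211-92687270, minus strand): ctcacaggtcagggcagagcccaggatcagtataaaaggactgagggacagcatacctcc
Lce1k (chr3:92807892-92807951, minus strand): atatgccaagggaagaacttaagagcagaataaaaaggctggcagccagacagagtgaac
Lce1l (chr3:92851287-92851346, minus strand): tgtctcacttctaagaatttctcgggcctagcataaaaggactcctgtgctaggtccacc

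Searched on both strands over all 32851 promoter windows of 300 bases (250 before and 50 after the start), it occurred in 6 windows, a share of 0.0183%. These are the windows of the 6 genes named. The stretch was written from the letters that these 6 windows share, so its presence in all 6 was fixed beforehand and nothing is read from the share. Windows that differ from it at a few letters were not counted. Compared base by base without gaps over the 60 bases, Lce1g was identical to Lce1h at 58 positions, Lce1i at 55, Lce1c at 53, Lce1e at 51 and Lce1j at 42. The genes without the stretch were identical at 15 to 46 positions, with Lce1d, at 46, above Lce1j. Windows offset against each other by even a single base score low in such a count, as the Lce1a1 window does, so a low count does not mean unrelated sequence. These genes are close copies of each other, so a probe set of one may read another, and how far it does was not tested. Lce1f is not in the promoter table.

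Lce1j, like the other Lce1 genes a late component of the cornified envelope, stood at 7.35 and 7.78 in DA3 co-culture and at 5.99 and 4.95 in DA3 alone, a difference of 2.09 ± 0.40 log2 units (SE from the fit over all arrays, n = 2 per group). Lce1h stood at 5.87 and 5.69 against 4.61 and 3.67, a difference of 1.64 ± 0.36. For both genes the 2 co-culture arrays lay above the 2 DA3 alone arrays, and DA3 alone array 1 lay about a log2 unit above array 2. Lce1g was at 5.98 and 6.30 against 5.22 and 4.24 (1.41 ± 0.49), Lce1c at 5.31 and 5.63 against 4.81 and 4.12 (1.00 ± 0.38). Lce1i was at 4.91 and 5.63 against 4.72 and 4.00 (0.91 ± 0.34), and Lce1e at 4.94 and 5.14 against 4.49 and 4.23 (0.68 ± 0.18). In all 6 the groups did not overlap, and in Lce1i the gap between them was small.

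The 6 genes with the stretch differed by 0.68 to 2.09, the 6 genes without it by -0.04 to 0.40, and Lce1f by 0.38. The stretch was derived from the 6 genes with the largest differences, after their values were seen, so this split only restates that choice. Lce1e, Lce1f, Lce1g, Lce1h, Lce1i and Lce1j follow each other on the chromosome, while Lce1c and Lce1d lie before them and Lce1k and Lce1l after. The neighbouring Lce3 and Lce6 genes differed by 0.04 to 0.73, with Lce3c, at 4.67 and 5.36 in DA3 co-culture against 4.24 and 4.34 in DA3 alone, the largest. All 13 Sprr genes were higher in mean, by 0.03 to 0.56, but 13 of 13 had both levels under the lowest array median.

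**Figure D1:**
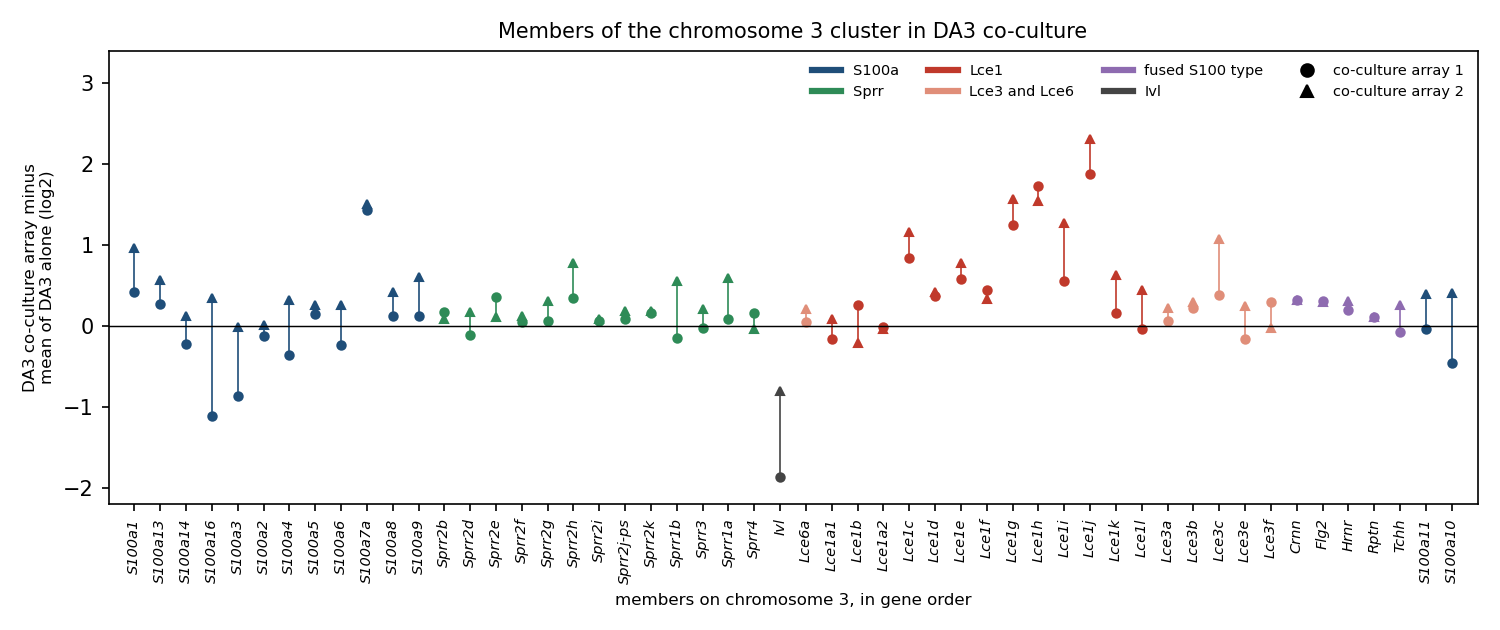
Each DA3 co-culture array (circle, array 1; triangle, array 2) minus the mean of the DA3 alone arrays, in log2 units, for the 52 genes on chromosome 3 in gene order, with colours for gene families. Lce1j, Lce1h, S100a7a and Lce1g have the largest mean differences, 2.09, 1.64, 1.46 and 1.41, and Ivl has the lowest, -1.34.

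The assay number moved with part of these values. The Lce1 genes were higher on the assay 4 array than on the assay 3 array for 11 of 13 genes in DA3 alone (median difference 0.27), 11 of 13 in the group labelled MBA-15 alone (0.41) and 7 of 13 in co-cultured MBA-15 (0.04). The median over all genes was 0.02, 0.04 and -0.02. Within assay 3, which alone holds both DA3 groups, the difference was 2.39 for Lce1j, 2.20 for Lce1h, 1.74 for Lce1g, 1.19 for Lce1c, 0.90 for Lce1i and 0.72 for Lce1e, so these were about as large within the assay.

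Stromal markers read higher in the DA3 co-culture fraction: the 25 measured had array means of 6.06 and 5.60 there, against 5.06 and 5.17 in DA3 alone, and 8.02 and 7.68 in co-cultured MBA-15. Their differences in DA3 ran from -0.37 for Twist1 to 1.92 for Col1a1, with a median of 0.68 against 0.04 over all genes. Whether this RNA came from stromal cells or from DA3 cells, and its part in the DA3 values, was not tested. Co-cultured MBA-15 read 4.13 and 4.14 for Lce1h and 5.78 and 5.56 for Lce1j, below the 2 DA3 co-culture arrays and, in mean, within 0.20 of DA3 alone. The DA3 fraction was above the MBA-15 fraction by 1.5 ± 0.49 for Lce1g, 1.12 ± 0.34 for Lce1i, 0.96 ± 0.38 for Lce1c and 0.88 ± 0.18 for Lce1e. The limma adjusted p values were 0.101, 0.0835, 0.156 and 0.0256, and the call of Lce1e was lost in 5 of 16 alternatives. These values rest on the same DA3 co-culture arrays and add no independent support.

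**Figure D2:**
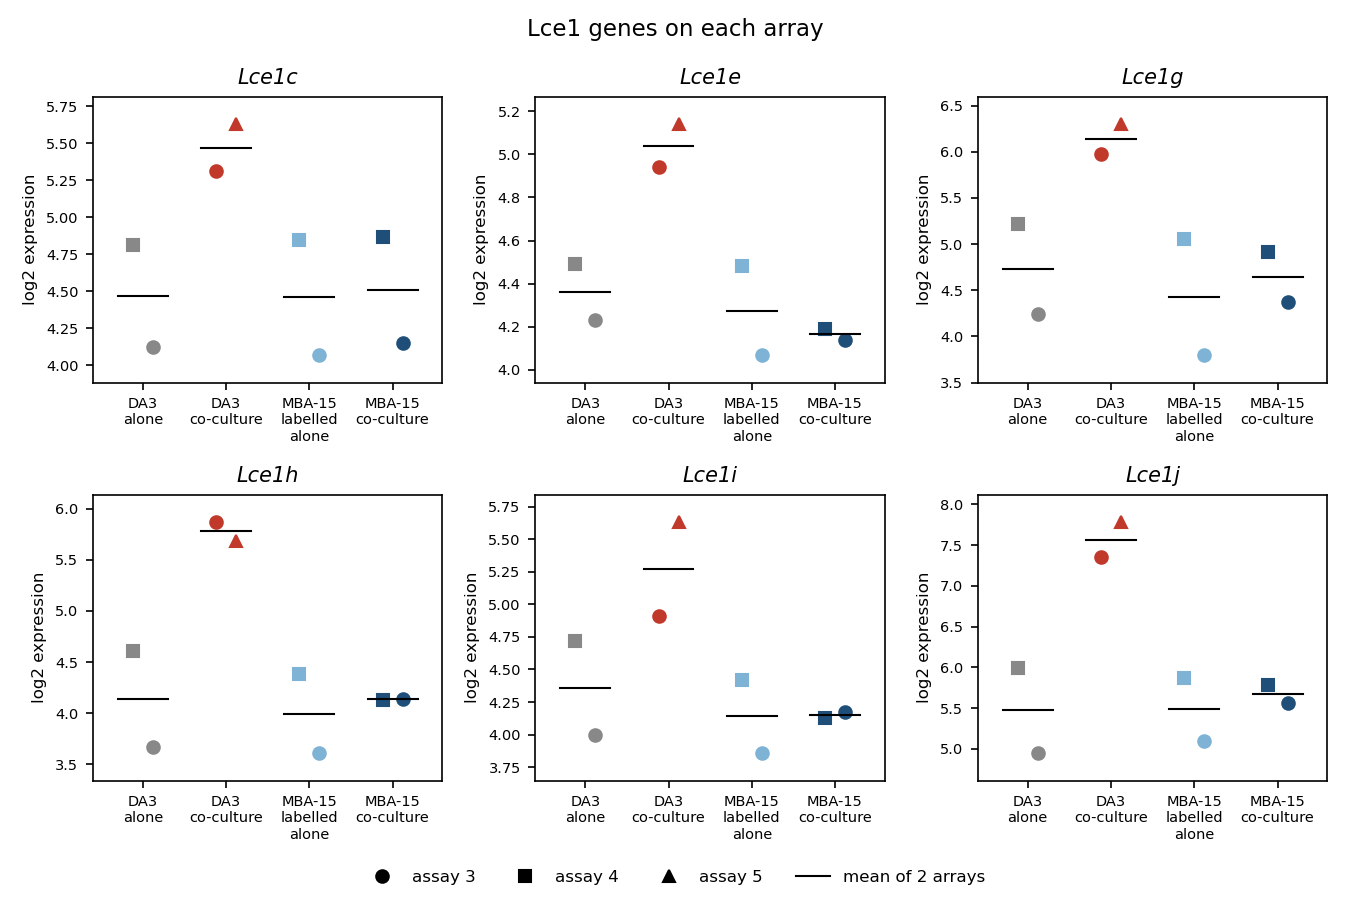
Log2 expression of 6 Lce1 genes on each of the 8 arrays, by group, with the marker showing the assay number and a line at the mean of 2 arrays. In DA3 co-culture both arrays lie above both DA3 alone arrays for each gene, and in DA3 alone the assay 4 array lies above the assay 3 array.

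Sfn encodes 14-3-3 sigma, an epithelial adaptor protein that binds phosphorylated partners and holds cells before mitosis after DNA damage. Its level was 9.01 and 9.99 in DA3 co-culture and 7.51 and 6.95 in DA3 alone, a difference of 2.27 ± 0.34. A second Sfn probe set read 8.49 and 9.51 against 6.84 and 6.39. The groups lay well apart on both probe sets, and DA3 co-culture array 2, the assay 5 array, was the higher one. Within assay 3 the difference was 2.06. In MBA-15 co-culture Sfn was at 4.89 and 4.58. The 6 other 14-3-3 genes measured differed in DA3 by a median of 0.00, from Ywhaq at -0.46 ± 0.20 to Ywhag at 0.45 ± 0.29. The DA3 comparison was fitted over all genes, with p-values given only for genes outside the set. Limma called 2 of all genes higher (0.01%) and 6 lower (0.0301%), counted with the set included, so a count of 0 in a short list there says little. It called 0 of the 6 other 14-3-3 genes, with 0 at an unadjusted p under 0.05.

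Tgm1 and Tgm2, of the 10 transglutaminase family genes measured, were lower in DA3 co-culture. Tgm1 encodes the membrane-bound transglutaminase that cross-links the cornified envelope, and it was at 4.68 and 5.11 in DA3 co-culture against 6.85 and 6.42 in DA3 alone, a difference of -1.74 ± 0.20 log2 units. Tgm2, the widely expressed tissue transglutaminase, was at 7.81 and 7.0 against 8.82 and 8.86, a difference of -1.43 ± 0.43. Both genes showed no overlap between the groups, and within assay 3 they differed by -1.74 and -1.05. The 8 other genes of the family differed by 0.00 to 0.34 with a median of 0.16, and 0 of them had a group mean at the lowest array median or above it.

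Of the proteins laid down first, involucrin and periplakin RNA was lower in DA3 co-culture and envoplakin RNA was close to its DA3 alone level. Ppl, for the cytolinker periplakin, was at 5.43 and 4.94 against 6.64 and 6.41 (-1.34 ± 0.24). Ivl, for the glutamine-rich scaffold protein involucrin, was at 4.66 and 5.73 against 6.11 and 6.96 (-1.34 ± 0.46), with more spread between the arrays of a group than between the nearest arrays of the 2 groups. Evpl, for envoplakin, the partner of periplakin, was at 5.48 and 5.34 against 5.58 and 5.50 (-0.13 ± 0.15). Within assay 3 the difference was -0.99 for Ppl, -2.30 for Ivl and -0.01 for Evpl. Evpl moved to 0.15 when the values were quantile normalized again, and Ivl to -2.17 with the assay number as a block. Among the 5 other plakin genes, Eppk1 was at 4.61 and 4.02 against 5.36 and 5.65, and Dsp, for desmoplakin of the desmosome, at 6.56 and 6.43 against 7.48 and 7.38. Limma called 0 of the 5, with 2 at an unadjusted p under 0.05, in a comparison that called 0.01% of all genes higher and 0.0301% lower.

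The window before Ivl is shown because this gene, alone on chromosome 3, was at least 1 log2 unit lower in DA3 co-culture without overlap. That of Sprr1b, a small proline-rich gene, is shown because it holds the same motifs. Capitals mark the AP-1 element TGANTCA, to which FOS and JUN proteins bind, and the TATA box core TATAAA, in RefSeq sequence of build GRCm38.p6, 5′ to 3′ on the strand of the gene and ending at the base before the start.
Ivl (chr3:92573736-92573885, minus strand): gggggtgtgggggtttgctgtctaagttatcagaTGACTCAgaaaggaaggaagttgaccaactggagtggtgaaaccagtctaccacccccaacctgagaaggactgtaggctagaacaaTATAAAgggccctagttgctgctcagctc
Sprr1b (chr3:92438780-92438929, minus strand): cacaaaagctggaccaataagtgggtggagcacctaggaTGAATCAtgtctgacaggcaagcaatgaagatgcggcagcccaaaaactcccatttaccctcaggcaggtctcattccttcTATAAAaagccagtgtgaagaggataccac
On both strands TGANTCA was found in the windows of 15 of the 48 matched genes, among them 9 of 11 Sprr genes and 0 Lce1 genes, against 7.81% of all windows. TATAAA was found in those of 21 of the 48, among them 10 of 11 Sprr genes, against 13.6% of all windows, and the motifs overlap at no position in the windows shown. A match is a description of these letters only. Of the FOS and JUN genes listed as regulators, Fosl1 differed most in DA3. It read 7.59 and 7.04 in DA3 co-culture and 5.97 and 5.19 in DA3 alone (1.74 ± 0.44, limma adjusted p = 0.209). Fosl2 differed by 0.17 ± 0.61, Junb by 0.27 ± 0.23 and Jun by 0.30 ± 0.30. Sprr1b read 4.01 and 4.72 in DA3 co-culture against 4.36 and 3.97. A part of these regulators in the values of Ivl or Sprr1b was not tested.

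**Figure D3:**
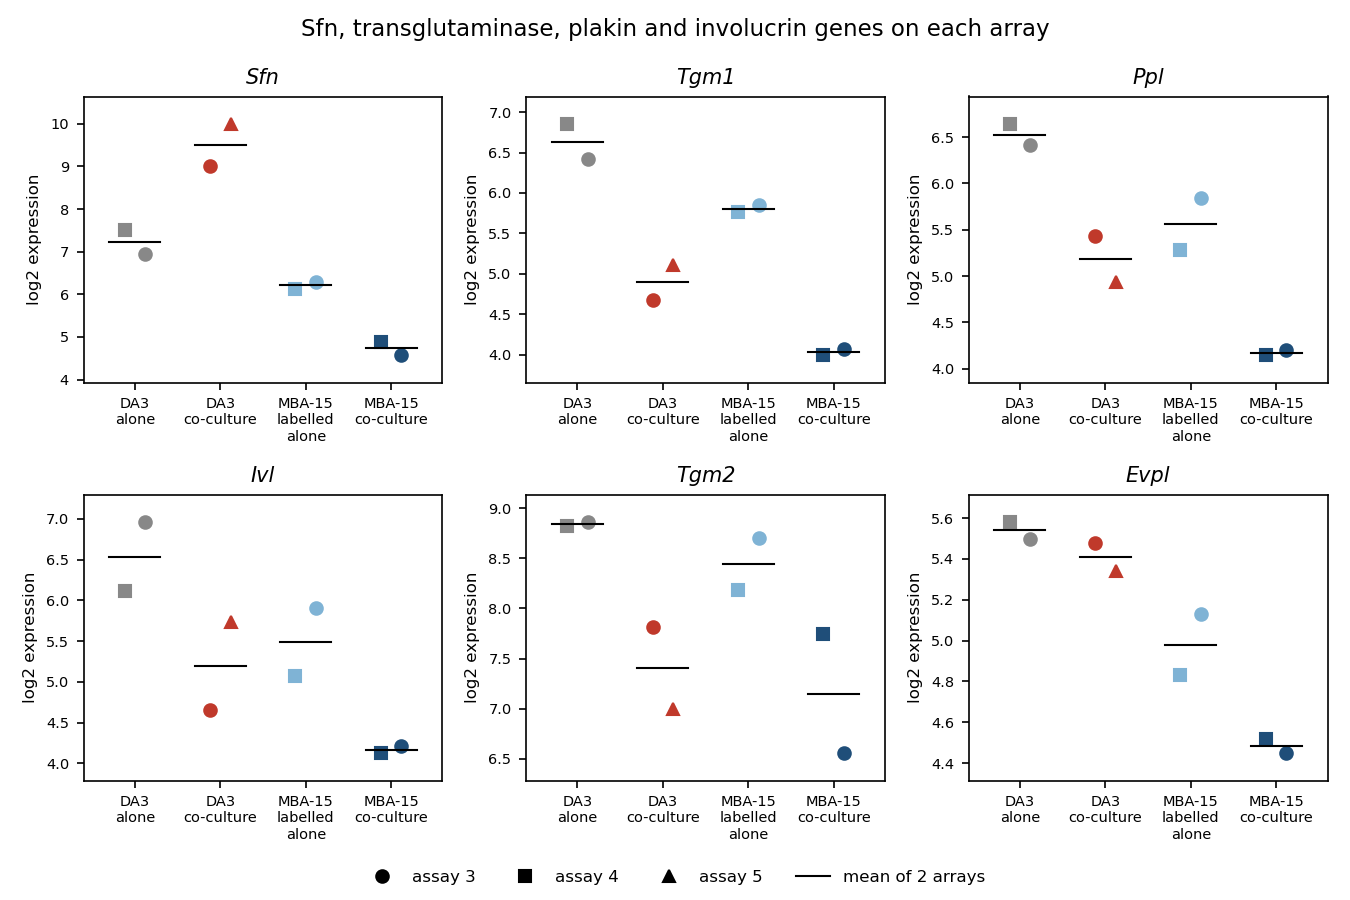
Log2 expression of Sfn, Tgm1, Ppl, Ivl, Tgm2 and Evpl on each array by group, with the marker showing the assay number and a line at the mean of 2 arrays. Sfn is higher and Tgm1, Ppl, Ivl and Tgm2 are lower in DA3 co-culture than in DA3 alone, and all 6 are lowest, in mean, in MBA-15 co-culture.

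S100a7a, a relative of human psoriasin, was the 1 of 14 S100a genes at least 1 log2 unit apart in DA3 without overlap, at 6.37 and 6.45 in co-culture against 5.29 and 4.59 alone (1.46 ± 0.28). Within assay 3 it differed by 1.78. In co-cultured MBA-15 it read 4.28 and 4.89.

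In all, 6 of the 57 genes were at least 1 log2 unit higher in DA3 co-culture without overlap of the arrays (10.5%), where 0.617% of all genes were, and 4 were lower by as much (7.02%), where 2.16% of all genes were. Without a minimum size, 25 genes were higher and 5 lower with no overlap, where 31.4% and 22.4% of all genes were. The set was picked on this comparison, so nothing is read from these shares. When the values were quantile normalized again, 7 genes were higher and 3 lower by 1 log2 unit, and over all genes the split went from 123 higher and 431 lower to 203 (1.02%) and 229 (1.15%). The median difference was 0.17 over the 57 genes and 0.04 over all genes.

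The second comparison, of co-cultured MBA-15 with the arrays labelled MBA-15 alone, took no part in picking the genes. By its labels it addresses the stromal side of the co-culture. Its control arrays read high for epithelial markers, with Epcam at 8.45 and 9.25 against 5.58 and 5.19 in co-culture. Whether the falls below are changes in stromal cells was not tested. S100a14, an S100 gene of epithelial cells, fell, from 7.90 and 8.62 to 4.31 and 4.92, a change of -3.64 ± 0.30 log2 units (limma with Benjamini-Hochberg adjustment, adjusted p = 0.00713). Tgm1 fell too, from 5.76 and 5.85 to 4.00 and 4.07 (-1.77 ± 0.20, limma adjusted p = 0.0178). The arrays of each group lay close together for Tgm1 and the groups were far apart for both genes. The level of Tgm1 in MBA-15 co-culture was under the lowest array median, so the size of its fall may be understated.

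These were the 2 of 57 genes called lower (3.51%, against 0.772% of all genes), and 0 were called higher (against 0.0752% of all genes). At an unadjusted p under 0.05 limma had 8 lower and 3 higher. The remaining genes of the rule with the largest falls in value did not pass: S100a16 went from 7.37 and 7.31 to 5.49 and 5.69 (-1.74 ± 0.42, limma adjusted p = 0.186) and Sfn from 6.12 and 6.30 to 4.89 and 4.58 (-1.48 ± 0.34, adjusted p = 0.166). Ppl (-1.39 ± 0.24), Ivl (-1.32 ± 0.46), Tgm2 (-1.29 ± 0.43) and Evpl (-0.50 ± 0.15) had no overlap between the groups either and adjusted p values of 0.071, 0.386, 0.369 and 0.275. The largest differences upward, of S100a1 (0.89 ± 0.45), Sprr1b (0.71 ± 0.55), S100a4 (0.69 ± 0.29) and S100a13 (0.51 ± 0.23), had limma adjusted p values of 0.623, 0.76, 0.51 and 0.548. The Lce1 genes differed by -0.11 to 0.38, with 0 of 13 called.

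Every one of the 8 genes named with lower values was also lower in co-cultured MBA-15 than in DA3 alone. Epithelial markers moved with them: 17 of 24 were called lower in this comparison and 0 higher, with a median of -2.80. Of all genes, 0.772% were called lower and 0.0752% higher. On a linear scale with co-cultured MBA-15 at 0% and DA3 alone at 100%, the control arrays of MBA-15 stood at 44.4% and 81.9% for Epcam. On the same scale S100a14 stood at 33.1% and 56.8%, Tgm1 at 44.9% and 49.0%, S100a16 at 50.2% and 47.3%, Sfn at 34.0% and 41.3%, Ppl at 28.1% and 52.4%, Ivl at 19.8% and 53.2%, Evpl at 25.2% and 52.8% and Tgm2 at 45.0% and 85.7%. The part of DA3 RNA on these arrays in the falls of S100a14 and Tgm1 was not tested. Within assay 3 and assay 4 the change was -3.70 and -3.59 for S100a14 and -1.78 and -1.76 for Tgm1. Tgm1 missed the threshold when any 1 of the 4 arrays compared was left out, and both genes missed it in a fit of these 4 arrays alone, where adjusted p reached 0.0602 for S100a14 and 0.167 for Tgm1.

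Other genes of cornification on a list of 41 measured genes gave 4 falls and 0 rises in MBA-15 co-culture, all of adhesion or protease function: St14, for the membrane serine protease matriptase (-3.38 ± 0.31, limma adjusted p = 0.00832), Jup, for plakoglobin of desmosomes and adherens junctions (-2.75 ± 0.39, adjusted p = 0.0351), Dsp (-2.03 ± 0.30, adjusted p = 0.0408) and Pkp1, for a desmosomal plakophilin (-1.32 ± 0.20, adjusted p = 0.0416). Of all genes, limma called 0.0752% higher and 0.772% lower in the MBA-15 comparison. In DA3, where limma called 0.01% of all genes higher and 0.0301% lower, it called 0 of the 41, with 7 at an unadjusted p under 0.05, and the median difference was 0.18. The kallikrein genes Klk10 (9.15 and 9.75 against 8.60 and 7.94) and Klk8 (6.24 and 6.70 against 5.49 and 5.32) and Sbsn (5.55 and 7.07 against 5.55 and 4.99) stood highest there. Sbsn rested on DA3 co-culture array 2. The DA3 level of Krt5 and Krt14, the keratins of basal keratinocytes, was 4.25 and 4.90 and 4.73 and 5.20 in co-culture and 5.08 and 4.69 and 4.65 and 4.92 alone, with no clear separation.

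The third comparison set MBA-15 co-culture against DA3 alone, the arrays with the least and a high level of epithelial markers. Of the 14 S100a genes 3 were called higher and 2 lower in MBA-15, where 6.08% of all genes were called higher and 6.47% lower. S100a14 was at 4.31 and 4.92 in co-cultured MBA-15 against 9.39 and 9.39 in DA3 alone, a difference of -4.78 ± 0.30 (limma adjusted p = 0.000298), and its neighbour S100a16 was at 5.49 and 5.69 against 8.22 and 8.04, a difference of -2.54 ± 0.42 (adjusted p = 0.0109). S100a1, best known for calcium handling in muscle, was at 6.38 and 7.54 against 3.97 and 4.08, higher by 2.93 ± 0.45 (adjusted p = 0.00805). Its neighbour S100a13, which takes part in the release of growth factors without a signal peptide, was at 6.08 and 6.49 against 5.22 and 5.21, higher by 1.07 ± 0.23 (adjusted p = 0.0274). S100a4, known from fibroblasts and metastatic cells, was at 8.61 and 8.93 against 7.14 and 7.20, higher by 1.60 ± 0.29 (adjusted p = 0.0145). The groups lay clearly apart for all 5 genes.

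S100a1 and S100a13 start on opposite strands and face away from each other, with 104 bases between their starts, and this stretch is shown because both genes were higher in MBA-15. It is the RefSeq sequence of build GRCm38.p6, 5′ to 3′ on the plus strand, the strand of S100a13, in lower case with no motif marked.
S100a1 to S100a13 (chr3:90514331-90514434, plus strand): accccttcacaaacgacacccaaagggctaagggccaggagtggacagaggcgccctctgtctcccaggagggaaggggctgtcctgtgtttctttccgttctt
In gene order S100a1 and S100a13 are followed by S100a14 and S100a16, so genes higher in MBA-15 and genes higher in DA3 lie side by side. Within assay 3 and assay 4 the difference was 3.45 and 2.41 for S100a1, 1.28 and 0.86 for S100a13, 1.73 and 1.47 for S100a4, -4.47 and -5.08 for S100a14 and -2.34 and -2.73 for S100a16.

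The other 9 S100a genes were not called. S100a3, best known from hair, was at 4.90 and 5.58 in co-cultured MBA-15 against 5.87 and 6.25 in DA3 alone, without overlap (-0.82 ± 0.34, limma adjusted p = 0.209). S100a6, for calcyclin, differed by -0.08 ± 0.19, S100a10, for the partner of annexin A2, by -0.32 ± 0.28 and S100a11 by -0.33 ± 0.31, and limma called none of the 3 (adjusted p = 0.893, 0.617 and 0.652). S100a11 has a second probe set, at 10.73 and 9.98 in co-cultured MBA-15 against 11.20 and 11.14 in DA3 alone, while the probe set kept read 11.12 and 10.22 against 11 and 10.99. The 2 probe sets therefore differ in whether the groups overlap. S100a8 and S100a9, the myeloid calprotectin genes, read 4.05 to 4.63 and 3.43 to 4.13 over all 8 arrays. Of 14 leukocyte markers measured, with array means of 4.05 to 4.38, 4 had a group mean at the lowest array median or above it. Ptprc (CD45) read 3.71 to 4.35, while in DA3 alone the integrin gene Itgb2 read 6.67 and 6.67, Ly6g 6.17 and 7.40 and Cd68 6.65 and 5.90. Itgb2 and Ly6g were lower in DA3 co-culture, at 4.77 and 5.14 and at 4.81 and 6.11. Cd68 read 6.80 and 6.45 there, and Cd14, the last of the 4, read 3.84 and 3.92 against 3.74 and 3.53 alone. Over the 14 markers the median difference in DA3 was 0.11, against 0.04 over all genes, so the list as a whole was not lower. The part of the leukocyte genes in the values of the S100a genes was not tested.

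Of the barrier genes, Ivl was lower in co-cultured MBA-15 than in DA3 alone (-2.36 ± 0.46, limma adjusted p = 0.0186), as was Evpl (-1.05 ± 0.15, adjusted p = 0.00522). Sprr2k (0.63 ± 0.15, adjusted p = 0.0434) and the pseudogene Sprr2j-ps (0.65 ± 0.12, adjusted p = 0.0185) were called higher, with both levels of each under the lowest array median. The call of Sprr2k was lost in 10 of 15 alternatives, with assay or replicate number as a block among them (adjusted p up to 0.236), and that of Sprr2j-ps in 3 of 15. Sprr1b, at 5.84 and 5.63 against 4.36 and 3.97, was clear of overlap but not called (1.57 ± 0.55, limma adjusted p = 0.132). Tgm1, Sfn and Ppl, picked on the DA3 arrays and so not tested here, differed by -2.60, -2.50 and -2.36, and Tgm2 was not called (-1.69 ± 0.43, adjusted p = 0.0517).

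Of the 52 genes tested, 5 were higher and 4 lower in MBA-15 co-culture (9.62% and 7.69%), near the 6.08% and 6.47% of all genes. Without array 1 or 2 of DA3 alone, 0 genes were called higher and 2 lower, and S100a1, S100a4, S100a13, S100a16 and Sprr2j-ps were each among those lost. Without array 1 or 2 of co-cultured MBA-15, 3 and 2 genes were called higher and Ivl was not called lower. The call of S100a14 held in each of the 16 alternative settings. Of the 41 other cornification genes 2 were higher and 11 lower here.

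The last comparison set the 2 fractions of the co-culture against each other, DA3 against MBA-15, and shares the MBA-15 co-culture arrays with the one before. S100a14 was higher in the DA3 fraction by 4.72 ± 0.30 (9.17 and 9.51 against 4.31 and 4.92, limma adjusted p = 0.000483). S100a16 was higher by 2.16 ± 0.42 (7.02 and 8.48 against 5.49 and 5.69, adjusted p = 0.021), with DA3 co-culture array 1 well below array 2. Evpl was higher by 0.93 ± 0.15 (adjusted p = 0.00945), a call lost when assay was a block (adjusted p = 0.0542). S100a1 was lower (-2.25 ± 0.45, 4.44 and 4.99 against 6.38 and 7.54, adjusted p = 0.0235), and so were S100a4 (-1.62 ± 0.29, 6.81 and 7.49 against 8.61 and 8.93, adjusted p = 0.0152) and Sprr2j-ps (-0.52 ± 0.12, adjusted p = 0.0422), a call of low level lost in 11 of 15 alternatives. Sfn, picked on the DA3 co-culture arrays, is given without a test, at 4.77 ± 0.34 higher in the DA3 fraction.

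With S100a7a and Lce1e, which had been named for their values on the same DA3 co-culture arrays and so add no independent support, 5 of 52 genes were higher (9.62%, against 4.48% of all genes) and 3 lower (5.77%, against 8.28%). Without array 1 or 2 of co-cultured MBA-15, 3 genes were called higher, with S100a16 and Lce1e lost. The count of lower genes was 0 without array 2 of co-cultured MBA-15, and 1, without S100a1, when array 1 or 2 of DA3 alone or array 1 of DA3 co-culture was left out. When assay was a block 4 genes were higher, of which 2 were among the 5, and 1 was lower. Within assay 3 the difference was 4.24 for S100a14, 1.33 for S100a16, 1.48 for S100a7a, 1.03 for Evpl, -3.10 for S100a1 and -2.12 for S100a4. Of the 41 other cornification genes 12 were higher and 1 lower here.

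**Figure D4:**
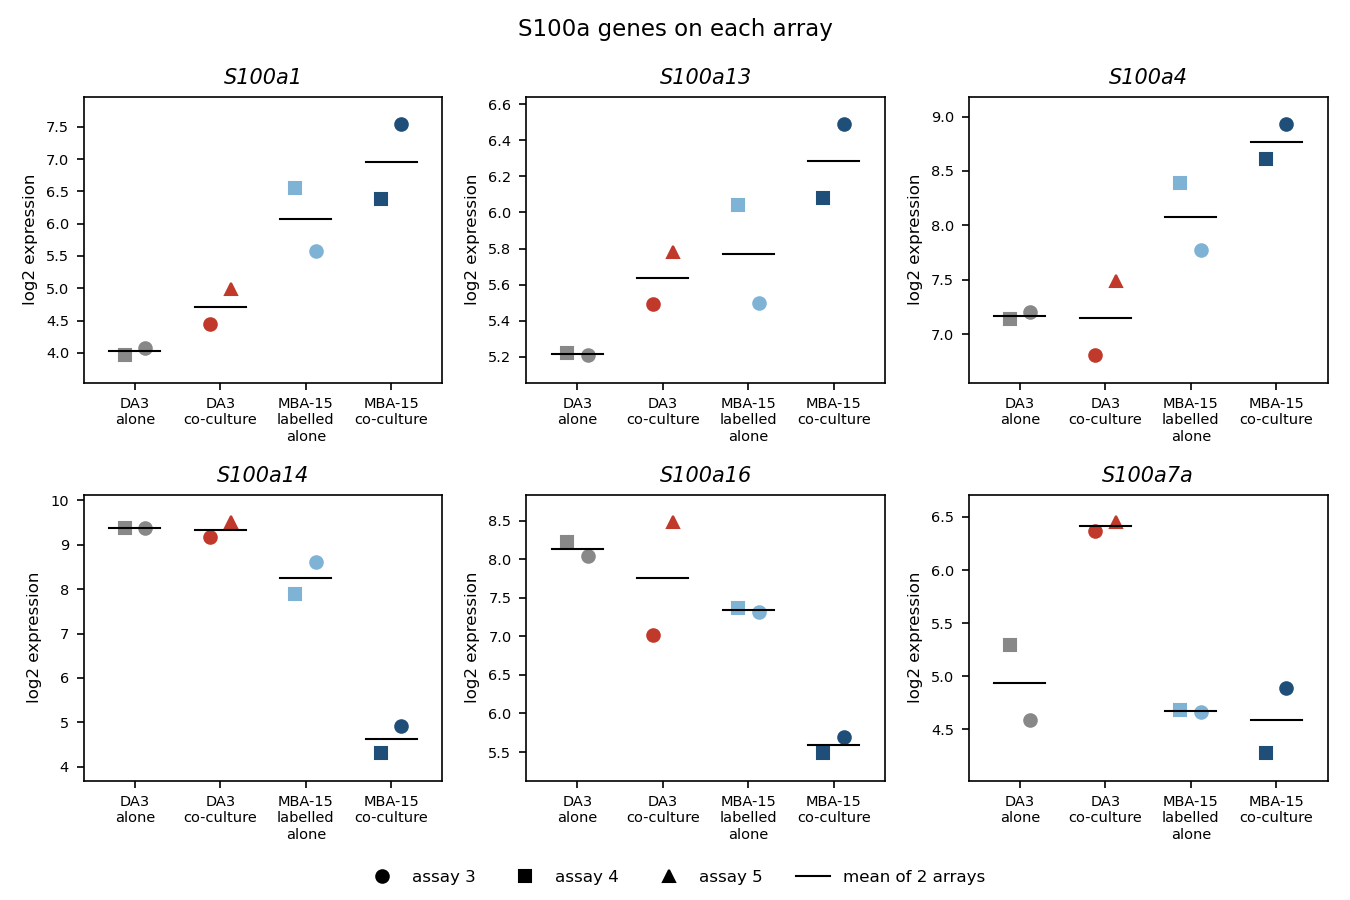
Log2 expression of 6 S100a genes on each array by group, with the marker showing the assay number and a line at the mean of 2 arrays. S100a1, S100a13 and S100a4 are highest, in mean, in MBA-15 co-culture, S100a14 and S100a16 are highest in DA3 alone, and S100a7a is highest in DA3 co-culture.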

How the data were processed

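The authors deposited log2 expression values per probe set, made with RMA and Partek 6.5 per the submitters' processing notes, whose parameters are not given in the sources used here. The log2 scale was read from the range of the values. Of 35556 probe sets, 21789 had 1 gene symbol in the platform annotation, 1621 several and 12146 none listed. Where a gene had several probe sets, that with the highest mean over 8 arrays stood for it. The resulting 19938 genes were tested without a filter for low levels. Groups and replicate numbers came from the titles. Contrasts of 4 group means were fitted with limma 3.58.1 in R 4.3.3 (lmFit, eBayes) to all 8 arrays, with 4 residual and 2.6 prior degrees of freedom, with two-sided p-values and Benjamini-Hochberg adjustment across the 19938 genes (threshold 0.05). The comparison of the DA3 groups was fitted and adjusted over all 19938 genes, but p-values are given only for genes outside the 57. Its shares of all genes called may include some of the 57. Errors are standard errors from that fit, which share 1 estimate of the spread. The precision is limited by the number of arrays.

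On simulated data of 19938 genes for the MBA-15 comparison the fit called 6 of 50 genes changed by 1 log2 unit, 36 of 50 by 2 and 46 of 50 by 3. The 57 genes and the lists of other genes were chosen with earlier results of these data known. The genes named with full values are the 5 that led to the choice, Tgm2 and Evpl, up to 8 in each direction in DA3 by size without overlap, those called in the other comparisons (filled to 4 a direction for MBA-15), and S100a genes with a group mean of 7 or more; others were chosen after their values were seen. Alternatives were a variance trend, the assay or replicate number as a block, each array left out, the mean of all probe sets of a gene, low genes left out, only the groups compared, quantile normalization and median centring. For DA3, the difference within assay 3 was added after the data were examined.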

Additional observations from a re-analysis of the deposited data

Results flagged for a closer look

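For 2 of the 57 genes the arrays moved in opposite directions in the 2 co-culture comparisons, with no overlap in either (3.51%), where 661 of all 19938 genes did so (3.32%). Sfn was higher in DA3 co-culture and lower in MBA-15 co-culture, and its 2 differences lie 3.75 log2 units apart. Sprr2b, whose means were under the lowest array median in all 4 groups, did so by 0.29. The difference between the comparisons was not tested, because Sfn was picked on the DA3 arrays and the arrays labelled MBA-15 alone read high for epithelial markers.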

How the results depend on the processing

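In DA3 the counts of 6 higher and 4 lower genes stayed between 5 and 7 and between 3 and 5 under the other settings, within assay 3 included, and ranged from 4 to 8 and from 3 to 5 when 1 array was left out. In the MBA-15 comparison the count of 2 lower genes was 0 with only the groups compared and ranged from 1 to 3 with 1 array left out, and that of higher genes was 0 throughout. Between the lines the count of 5 higher genes was 3 with low genes left out and ranged from 0 to 6 with 1 array left out, and that of 4 lower genes from 2 to 5. Between the fractions the count of 5 higher genes was 9 with a variance trend, 3 with only the groups compared and 3 to 6 with 1 array left out, and that of 3 lower genes was 1 with the assay number as a block, 0 with only the groups compared and 0 to 3 with 1 array left out. The cause of these moves was not tested, beyond the fewer arrays or genes that some settings leave. With the replicate number as a block the counts higher and lower were 6 and 4 in DA3, 0 and 2 in MBA-15, 4 and 5 between the lines and 5 and 2 between the fractions. Deviations of same-numbered arrays correlated between -0.41 and 0.31 over the pairs of groups. In 3 of the 4 groups the replicate number also follows the assay number, so the 2 cannot be told apart there, and the labels do not say that the number pairs samples. Of the single gene values under alternatives, 1494 kept their side of the threshold or their value within the spread, 63 lost a call, 27 gained one, 8 moved and 0 of the called ones changed sign.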

Other observations

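Between co-cultured MBA-15 and DA3 alone, 3 of 30 regulators of epidermal differentiation were called higher and 6 lower, and of 13 S100 partners 1 was higher and 2 lower, where 6.08% and 6.47% of all genes were. Of the 30 regulators, the epithelial transcription factor gene Elf3 fell in MBA-15 co-culture against the arrays labelled alone (-2.60 ± 0.22, limma adjusted p = 0.00735), with 0 of 30 called in DA3 (of all genes 0.01% were called higher and 0.0301% lower; 5 of the 30 had an unadjusted p under 0.05), where Ehf, of the same ETS family, stood at 4.30 and 4.56 in co-culture against 5.39 and 5.94 alone. Of the 13 partners, receptors and other S100 genes, the membrane-binding annexin gene Anxa6 fell in MBA-15 co-culture against the arrays labelled alone (-0.93 ± 0.14, limma adjusted p = 0.0497). Tlr4, a receptor reported for S100A8 and S100A9, was higher in MBA-15 co-culture than in DA3 alone by 1.78 ± 0.31 (limma adjusted p = 0.0122), and Anxa11 was lower by 1.01 ± 0.21 (adjusted p = 0.0234).

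Outside the rule lie 4 probe sets that carry several symbols, at least 1 of them of an Lce or Sprr gene. The probe set shared by 6 Lce3 genes read 4.81 and 4.37 in DA3 co-culture and 4.33 and 3.98 in DA3 alone, and the 3 probe sets of Sprr2a genes read between 3.67 and 5.11 on all arrays.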
